A study of Oryza sativa with 18 samples.

Results

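The long arm of chromosome 12 is described here as the part of the chromosome from 15 Mb to its last peak, as it appears in R-loop peak lists from rice seedlings. Peaks of the 17 libraries other than the one titled RNaseH were merged wherever they shared at least 1 bp, which gave 89277 regions over the 12 chromosomes. Of these, 2674 (3.00%) had their midpoint on chromosome 12 at or beyond 15 Mb, between 15001610 and 27529721. The arm was chosen by the positions of the peaks of the RNaseH library, of which it holds the largest cluster, 27 peaks from 20469862 to 20667795. In that stretch of 0.198 Mb lay 40 of the merged regions, called the cluster below, and 2634 regions lay on the arm outside it. The cluster's limits were selected on those positions, so its content of RNaseH peaks is a description only. The lists give no centromere position, and whether 15 Mb is the inner end of the arm was not tested.

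An R-loop forms when a transcript pairs again with its template, so that an RNA-DNA hybrid stands opposite a displaced single strand of DNA. R-loops occur at promoters, at gene ends, at telomeres and centromeres and over ribosomal and other repeated DNA, and in plants they have been mapped over genes in both orientations. RNase H cuts the RNA of the hybrid, and treatment with it before capture is a usual control for methods that map R-loops. In the method used here, ISRH-seq, fragmented genomic DNA is labelled with biotin by RNase H together with DNA polymerase I, and the labelled strand is bound to streptavidin and sequenced from single-stranded libraries, per the labels' protocols.

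All 18 libraries came from wild-type plants of Oryza sativa, with the source labelled "seeding", that is, whole young plants with no separation of cell types. In all, 13 libraries were titled by the amount of fragmented DNA, with 2 libraries each at 8, 5, 3 and 1 µg and at 500 and 250 ng, and 1 library at 100 ng. A pair of libraries was titled salt, for plants grown in 150 mM NaCl for 3 days, and another pair CK(salt), taken as its control. The treatment label of the CK(salt) libraries also reads 3 days of salt, against their titles, so the direction of every salt comparison below rests on the titles. The single library titled RNaseH has no stated point at which the enzyme was added. How much DNA went into the RNaseH, salt and CK(salt) libraries is not stated. Whether libraries of a group stem from different plants is not stated either, and p-values therefore reflect the scatter among the libraries at hand, which may be technical.

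Outside the RNaseH library, which held 123 peaks, the lists had 14845 peaks at 100 ng to 70518 peaks in 8 µg replicate 1. The files hold no read counts. Background coverage, the most frequent background under a peak summit, served as the measure of depth. It ran from 4.82 to 12.7 fragments per position in the input libraries from 8 µg to 250 ng, was 0.88 at 100 ng and ran from 3.88 to 8.60 in the salt and CK(salt) libraries. A peak's strength is given as its score percentile, the rank of its q-value within its own list, because folds and scores belong to their own list. Local background is given as a multiple of that list's genome-wide background. The peak caller takes the larger of the genome-wide level and the level of the surroundings, so a multiple near 1 means surroundings with no excess of fragments.

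The first question was how R-loop peaks are spread along the arm. They were sparse near 15 Mb and denser toward the chromosome end. In 500 kb windows, the window from 27000001 to 27500000 held 138 regions and was the densest in 13 of the 17 libraries, with 240 ± 17 peaks per Mb at 8 µg and 145 ± 15.6 at 250 ng (SD, n = 2 each). The window from 25500001 to 26000000, also with 138 regions, was among the 3 densest in 14 libraries. The sparsest windows were 15500001 to 16000000, 18000001 to 18500000 and 20000001 to 20500000, which were among the lowest 3 in 14, 14 and 15 libraries. The third of these takes in the start of the cluster, from 20469862 on. The next window, which holds most of the cluster, had 72 peaks per Mb at 100 ng, the highest value of that library on the arm. Across the 25 full windows the correlation of peak density with distance from 15 Mb was 0.476 to 0.699, positive in 17 of 17 libraries. It is given as a description, since windows of 1 library share its depth. The outer 13 windows held 1.14 to 1.32 times the density of the inner 12.

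**Figure D1:**
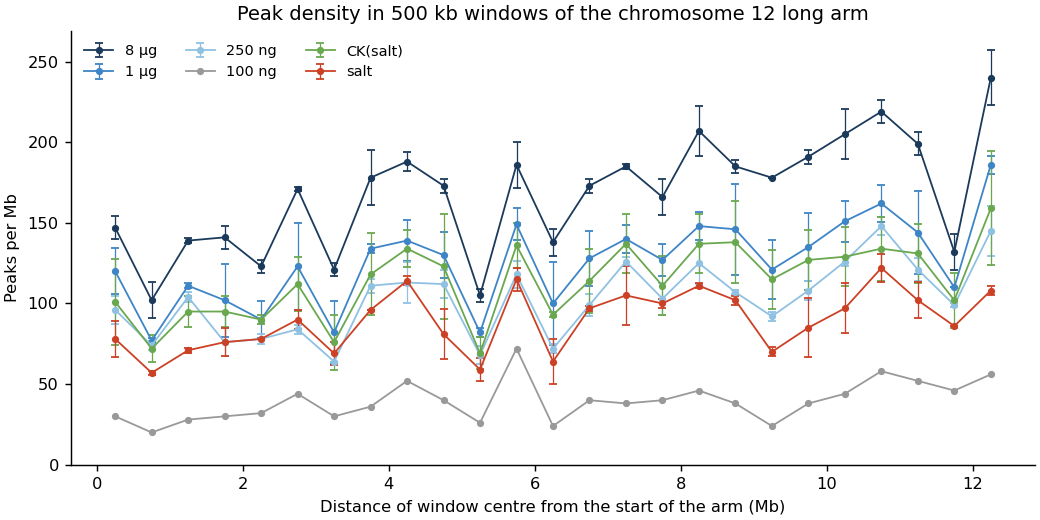
Peaks per Mb in 25 windows of 500 kb, against distance of the window's centre from the 15 Mb boundary, for 8 µg, 1 µg, 250 ng, 100 ng, CK(salt) and salt libraries. Points are group means, bars are SD (n = 2) and the 100 ng library is single. The 8 µg libraries have their highest mean, 240 peaks per Mb, at the far end, and the 100 ng library has its highest value, 72 peaks per Mb, in the window that holds most of the cluster.

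The longest stretch without any region ran from 17074163 to 17177233 (103 kb), followed by 21340751 to 21429805 (89.1 kb) and 15667349 to 15756285 (88.9 kb). The arm outside the cluster was a little poorer in peaks than the genome without the arm, as was the part of chromosome 12 before 15 Mb. In the 13 input libraries the arm outside the cluster had 119 ± 33.3 peaks per Mb, against 135 ± 36.2 over the genome without the arm (SD, n = 13). Its density was lower in 13 of 13 libraries (two-sided exact sign-flip permutation p = 0.00024, the smallest that 13 libraries allow, adjusted p = 0.00073 over 6 differences). Chromosome 12 before 15 Mb was poorer still, with 110 ± 31.2 peaks per Mb (SD, n = 13), and lay below the arm in 13 of 13 libraries, a difference that was not tested. The arm outside the cluster had a median peak width of 430 ± 67.3 bp. This was 1 bp below that of the rest of the genome, well inside the spread between libraries (adjusted exact permutation p = 0.589). The median score percentile of the arm outside the cluster was 1.20 points above that of the rest of the genome, higher in 9 of 13 libraries (adjusted exact permutation p = 0.032). That call was lost when all lists were cut to equal length (0.0724 points). In occupancy the arm outside the cluster also resembled the whole genome. A peak in all 17 libraries was found at 293 regions (11.1%), against a background of 10.6% over all 89277 regions, and a peak in 1 library at 374 (14.2%), against 14.2%.

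The cluster differed from this. It was made of separate peaks on a low background and of 2 blocks of closely spaced regions on a raised one. Of its 40 regions, 18 (45.0%) had a peak in all 17 libraries and 1 had a peak in a single library, beside the backgrounds of 10.6% and 14.2%. Regions of 1200 bp or more numbered 14 (35.0%) in the cluster and 255 (9.68%) on the rest of the arm, where the background is 10.7%. The median width of a merged region was 837 bp in the cluster and 540 bp outside it, and the median gap between regions was 883 bp and 2318 bp. Merged regions were no denser in the cluster, at 202 per Mb against 214 outside it, but had a peak in a median of 16 libraries against 8. The cluster's limits lie on RNaseH peaks that overlap regions of all 17 libraries. The tests that follow are thus not independent of its choice and describe a selected stretch. In the 13 input libraries the cluster had 204 ± 25 peaks per Mb against 119 ± 33.3 on the rest of the arm, higher in 13 of 13 (SD, n = 13; adjusted exact permutation p = 0.00073). Its median peak width was 533 ± 143 bp against 430 ± 67.3 bp, higher in 11 of 13 (adjusted exact permutation p = 0.0015). Its median score percentile was 75.8 ± 13.9 against 51.2 ± 1.69, higher in 12 of 13 (adjusted exact permutation p = 0.00098). The exception was 500 ng replicate 1, with 47.6 in the cluster and 52.3 outside it. With replicate 2 alone, 6 libraries in all, these 3 differences were 78.4 peaks per Mb, 95.3 bp and 28.5 points, and the adjusted exact permutation p-values were 0.0625, 0.15 and 0.0625, where 0.0313 is the smallest unadjusted p that 6 libraries allow.

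Local background also differed between the cluster and the rest of the arm. The median multiple at its peaks was 4.86 and 4.74 at 8 µg, 5.77 and 7.05 at 5 µg, 9.02 and 4.52 at 3 µg, 7.25 and 8.64 at 1 µg, 5.74 and 8.86 at 500 ng, 12.1 and 7.87 at 250 ng and 10.2 at 100 ng. It was 6.86 and 8.65 in the CK(salt) libraries, 17.2 and 11.3 in the salt libraries and 12.6 in the RNaseH library. On the rest of the arm it stayed between 1.16 and 1.39 in the 17 libraries, and 0 peaks there reached 5 times the genome-wide background in any of them. At the median cluster peak every library, the one titled RNaseH included, thus had an excess of fragments in the surroundings. The cluster alone held 34.9 to 52.9% of all peaks of a list that lay on at least 5 times the genome-wide background, which numbered 45 to 72 per list. Fold is measured over the local background. The median fold of cluster peaks was low, 2.55 to 3.64 against 3.99 to 6.09 on the rest of the arm. Their median summit pileup was high, 18.2 to 40.5 times the genome-wide background against 5.41 to 13.6 times.

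**Figure D2:**
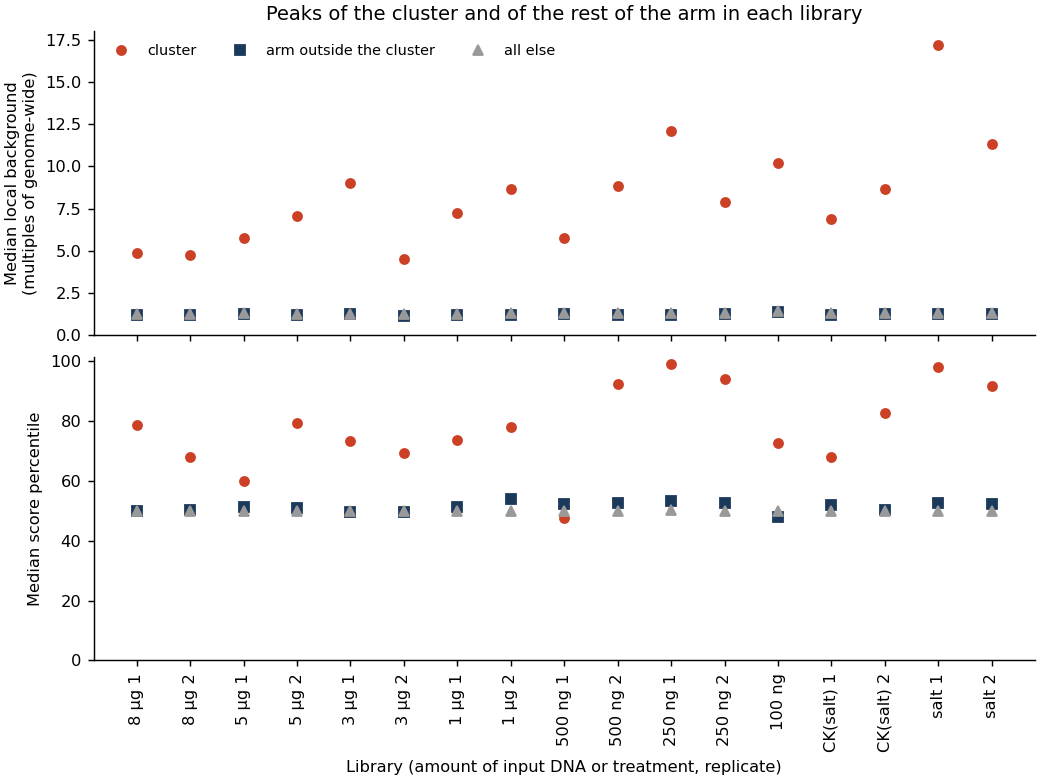
Median local background, in multiples of the genome-wide background (top), and median score percentile (bottom) of peaks in the cluster, on the arm outside it and everywhere off the arm (all else), in each of the 17 libraries. In the top panel the cluster lies above 4.5 in every library and the others lie below 1.5. In the bottom panel the cluster lies above the other points in all libraries but 500 ng replicate 1.

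Along its length the cluster fell into alternating segments. The first 5 regions, from 20469814 to 20498113, were narrow (median width 347 bp) and stood on a background of 1.0 to 3.90 times the genome-wide level. The next 23 regions, from 20498894 to 20544043, covered 58.7% of 45.2 kb, on a background of 7.32 to 21.4 times, with median folds of 1.56 to 6.37. Then came 6 well separated regions from 20558668 to 20622276 on a background of 1.0 to 1.83 times, and these had the highest folds of the cluster, 8.18 to 16.1. A second raised segment of 5 regions ran from 20628085 to 20660881, with a background of 5.66 to 7.84 times and a median region width of 1960 bp. The last region, 20665708 to 20667847, stood on 2.96 times. In all, 28 regions lay on at least 5 times the genome-wide background, with a median fold of 2.45, and 12 lay on less, with a median fold of 9.64. A peak in all 17 libraries was found at 11 of the 28 and at 7 of the 12.

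**Figure D3:**
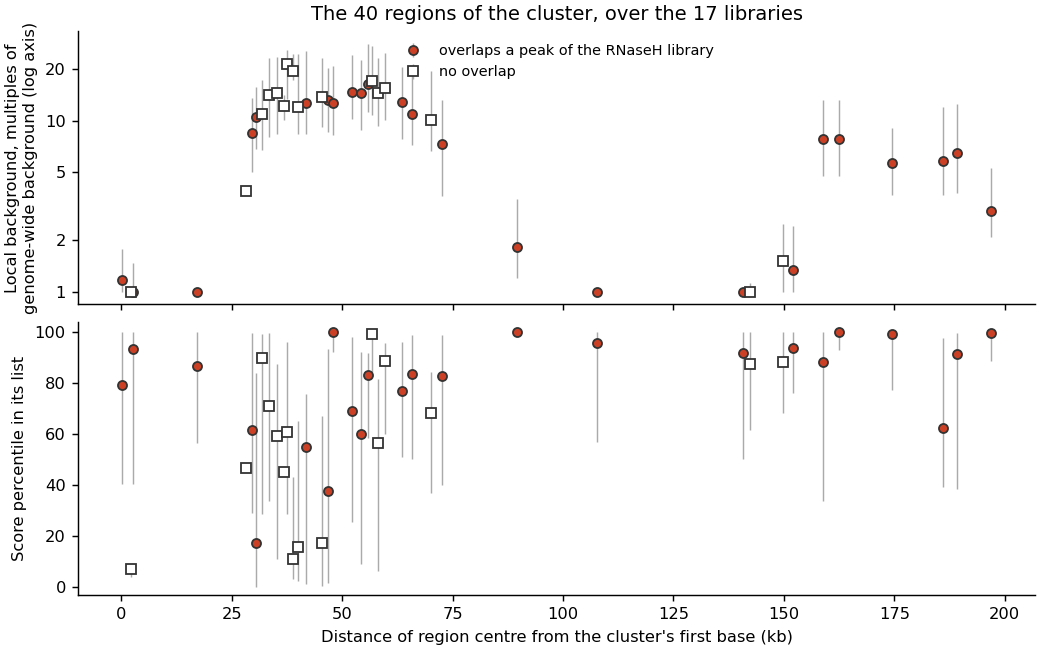
Local background in multiples of the genome-wide background (top, log axis) and score percentile (bottom) of the 40 cluster regions, against distance of the region's centre (kb) from the cluster's first base. Points are medians over the libraries that hold a peak, bars run from the lowest to the highest library, and filled circles mark regions that overlap a peak of the RNaseH library. A block of 23 regions has a background of 7.32 to 21.4 times, and median percentiles spread from 11.0 to 99.97 among the 28 regions on at least 5 times.

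The strongest cluster regions kept their rank in nearly every library. At 20517325 to 20518313, inside the first raised block, the score percentile over the 13 input libraries ran from 91.9 in 500 ng replicate 1, through a median of 99.97, to 99.998 in 8 µg replicate 2. Under salt it was 99.96 and 99.97, beside 99.995 and 99.99 in CK(salt). Its fold was 7.98 and 11.7 at 8 µg, 3.10 and 3.09 at 250 ng, 4.21 and 5.40 under salt and 8.26 and 6.37 in CK(salt). Percentile thus hardly moved, whereas both folds at 250 ng lay below both at 8 µg and both salt folds below both CK(salt) folds. The local background at this region lay the other way, with 8.29 and 9.04 times at 8 µg and 15.1 and 11.2 at 250 ng, and was 20.8 and 18.2 times under salt and 10.9 and 13.7 in CK(salt).

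The region at 20558668 to 20560056, which stands alone, ranked between 98.6 and 99.994 in the 13 input libraries, with a median of 99.96. Its fold was 18.4 and 19.01 at 8 µg, 14.8 and 11.7 at 250 ng, 11.4 at 100 ng, 16.1 and 16.7 under salt and 15.6 and 14.7 in CK(salt). Both salt folds lay above both CK(salt) folds here, by little. At 20631366 to 20633325, in the second raised block, the percentile ran from 93.0 in 500 ng replicate 1 to 99.99 among the input libraries, and 15 libraries had a single peak of 1879 to 1953 bp there. In 8 µg replicate 1 and at 100 ng the region held 2 shorter peaks, the stronger of them 741 and 687 bp wide. The other named regions were 20665708 to 20667847 (median percentile 99.4 over the 17 libraries), 20642155 to 20646566 (98.97) and 20577164 to 20577710 (95.4).

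**Figure D4:**
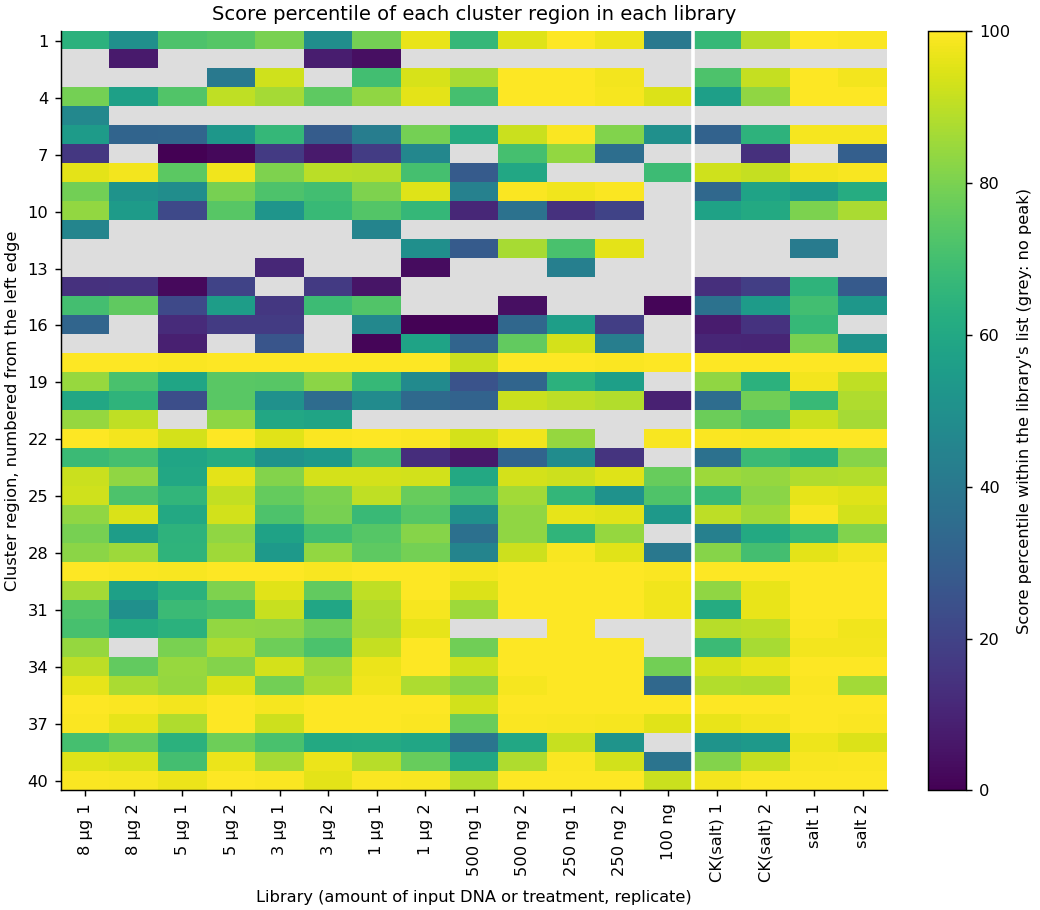
Score percentile of each of the 40 cluster regions (rows, numbered from the left edge) in each of the 17 libraries (columns), with grey where a library had no peak and a white line before the 4 CK(salt) and salt libraries. Regions 18, 29 and 36 lie above the percentile of 91 in every library, and the 100 ng library has the most gaps, 19 of 40.

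Not every cluster region was stable. Of the 22 regions that lacked a peak in at least 1 library, 7 had one in 16 libraries, and 4 had one in 3 libraries or fewer. Region 20472364 to 20472747 was absent from both 8 µg libraries and from the 100 ng library, yet ranked at 99.9 and 98.2 in the 250 ng libraries and at 99.9 and 98.4 under salt, with CK(salt) at 72.1 and 91.2. Region 20612027 to 20612399 was present in all 8 libraries of 8 to 1 µg and in 1 of the 5 libraries of 500 ng and less. Both were picked out after their values were seen. The widest merged region of the whole arm lay elsewhere, at 22604230 to 22608781 (4552 bp, 16 libraries). It joined 3 or 4 separate peaks in each of these libraries. Next in width came the cluster regions 20642155 to 20646566 (4412 bp), 20657108 to 20660881 (3774 bp) and 20540699 to 20544043 (3345 bp).

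The RNaseH library was compared with the others peak by peak. It covered 24 of the 40 cluster regions and 4 of the 2634 regions outside, beside a background of 0.125% of all regions, a count that the choice of the cluster fixes. Of its 27 cluster peaks, 17 overlapped a peak in each of the 17 other libraries, and 20 stood on at least 5 times its own genome-wide background. In 23 of the 27 the summit pileup, in multiples of the genome-wide background, lay within the range of the other libraries, in 4 it lay above all of them and in 0 below. Only places with an RNaseH peak entered, so a pileup too low to be called could not count as below. The fold lay within the range in 20, above in 2 and below all others in 5. The region of 20517325 to 20518313 belonged to the last kind. Its RNaseH pileup was 45.5 times the genome-wide background against a median of 83.2 and a range of 34.4 to 125 in the others, and its fold was 2.53 against a median of 6.37 and a range of 3.09 to 11.7. The strongest RNaseH peak of all 123, at 20558740 to 20559448, had a fold of 15.1, inside the range of 11.4 to 21.4 of the other libraries. A single RNaseH library allows no test.

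Outside the cluster the RNaseH library had 4 peaks on the arm, each within the range of the other libraries in pileup and in fold. The first overlapped 21599995 to 21600419, the highest-ranked region of the arm. Its percentile was at least 99.7 in all 17 libraries (median 99.99), its fold 21.6 and 22.4 at 8 µg, 14.9 and 13.2 at 250 ng, 22.5 and 24.4 under salt and 21.2 and 21.6 in CK(salt), and its width varied only from 384 to 424 bp. The RNaseH peak there had a fold of 15.4. The second overlapped 21960260 to 21960510, which had a peak in 10 of 13 input libraries, in both salt libraries and in neither CK(salt) library. The third, at 24681799 to 24682561, had percentiles of 93.1 and 89.7 under salt and 24.6 in 1 of the CK(salt) libraries. The fourth, at 17346810 to 17347122, had 96.0 and 77.4 under salt and 36.2 in 1 CK(salt) library. In each of these 3 the salt libraries lay above the CK(salt) libraries, which either had no peak or ranked lower.

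After 21599995 to 21600419, the highest-ranked regions outside the cluster with a peak in all 17 libraries were 22021869 to 22022560 (median percentile 99.8), 25647193 to 25647842 (99.6), 27238888 to 27239735 (99.5), 17577151 to 17578077 (99.1) and 26364176 to 26365861 (99.1). None of these 5 overlapped a peak of the RNaseH library. At 22021869 to 22022560 the fold was 17.8 and 21.5 at 8 µg, 7.46 and 7.83 at 250 ng and 10.1 at 100 ng, so the 250 ng libraries lay below both 8 µg libraries by more than their own spread. At 25647193 to 25647842 it was 14.8 and 20.9 at 8 µg and 3.69 and 7.76 at 250 ng, and 7.88 and 7.44 under salt against 14.1 and 13.1 in CK(salt). Percentiles of this region were above 90 in 16 of the 17 libraries and 38.4 in 250 ng replicate 1.

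The second question was how the arm depends on the amount of input DNA. Outside the cluster the number of peaks was 2100 and 2015 at 8 µg, 1448 and 1725 at 5 µg, 1454 and 1732 at 3 µg, 1647 and 1414 at 1 µg, 1321 and 1299 at 500 ng, 1229 and 1277 at 250 ng and 462 at 100 ng. The pairs from 5 to 1 µg overlapped one another, and the 500 and 250 ng pairs lay below them. The number, on the log2 scale, rose with log2 input, with Pearson's r = 0.797 (permutation p = 4.0e-05, or 0.00016 adjusted over 8 relations) and Spearman's rho = 0.925 (permutation p = 2.0e-05) over 13 libraries. With the 100 ng library and either 8 µg library left out, r was 0.827 or 0.821. With all lists cut to the length of the shortest the direction turned (r = -0.242, adjusted permutation p = 0.57), and with the 6 libraries of replicate 2 alone r was 0.973 but the call was lost (adjusted exact permutation p = 0.0556). Background coverage rose with input too, and at constant background coverage r was 0.552 (adjusted permutation p = 0.0666). Within runs of consecutive library codes, a possible batch that holds 8 of the libraries in runs of more than 1 amount, r was 0.891 (adjusted exact permutation p = 0.111). Few orders are possible within these runs, which limits how small this p can be.

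In the cluster the number of peaks spanned a narrower range. It was 47 and 40 at 8 µg, 45 and 47 at 5 µg, 42 and 43 at 3 µg, 43 and 42 at 1 µg, 38 and 37 at 500 ng, 34 and 36 at 250 ng and 31 at 100 ng. All libraries of 1 µg and more lay above all libraries of 500 ng and less (log2 number r = 0.883, permutation p = 4.0e-05, adjusted p = 0.00016; rho = 0.835, p = 0.00073, n = 13). With the 100 ng library and either 8 µg library left out, r was 0.802 or 0.941. With lists of equal length the direction turned here too (r = -0.511, adjusted permutation p = 0.203), and with replicate 2 alone the call was lost (r = 0.731, adjusted exact permutation p = 0.14). At constant background coverage r was 0.768 (adjusted permutation p = 0.0055), and within code runs 0.870 (adjusted exact permutation p = 0.111, again with few possible orders). The share of the list's peaks that lay in the cluster was 0.209% at 100 ng against 0.0606 to 0.0925% at higher amounts. The relation of this share to input, with r = -0.566 (adjusted permutation p = 0.035) and rho = -0.371 (unadjusted permutation p = 0.212), rested on the 100 ng library, without which r was -0.299 (adjusted permutation p = 0.35). It was -0.154 or -0.0582 when 1 of the 8 µg libraries was left out as well.

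The same contrast was seen in the recovery of individual regions. Both 8 µg libraries had a peak at 30 cluster regions, and 98.3 ± 2.36% of them had one at 5 µg, 93.3 ± 4.71% at 1 µg, 83.3 ± 4.71% at 250 ng (SD, n = 2 each) and 70.0% at 100 ng. On the rest of the arm the same was true of 1669 regions, with a recovery of 81.8 ± 8.90%, 74.8 ± 12.5%, 55.2 ± 3.35% and 26.0%. Over the genome without the arm the values were 82.1 ± 9.0%, 75.6 ± 10.9%, 56.8 ± 3.11% and 25.6%, so that the arm outside the cluster followed the genome to within the spread between libraries. The cluster exceeded the rest of the arm in each of the 11 libraries compared. This difference in recovery was not tested.

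For widths, and outside the cluster for ranks, the call depended on the 100 ng library and the direction on list length. Outside the cluster, in order from 8 µg to 250 ng, the median peak width was 423.5 ± 10.6, 394 ± 22.3, 396 ± 2.83, 451 ± 44.9, 489.5 ± 31.8 and 505 ± 17 bp (SD, n = 2 each), but 268 bp at 100 ng. In the cluster it was 464 ± 56.6, 441.5 ± 47.4, 422 ± 15.6, 577 ± 65.1, 658.5 ± 127 and 739 ± 49.1 bp (SD, n = 2 each), and 320 bp at 100 ng. With all 13 libraries in, neither relation passed the test (outside r = -0.113, adjusted permutation p = 0.721, rho = -0.349; cluster r = -0.431, adjusted permutation p = 0.282, rho = -0.416). Without the 100 ng library r was -0.832 outside the cluster and -0.872 in it (adjusted permutation p = 0.0031 and 0.0019), and with either 8 µg library left out as well it was -0.843 or -0.874 outside and -0.907 or -0.860 inside. With lists of equal length the direction turned, to r = 0.326 outside and 0.0854 in the cluster (adjusted permutation p = 0.57 and 0.846). The share of the list on the arm outside the cluster behaved alike, with r = 0.343 (adjusted permutation p = 0.346, rho = 0.427) over 13 libraries and r = 0.863 (adjusted permutation p = 0.0019) without the 100 ng library (0.870 or 0.836 with either 8 µg library left out as well). So did its median percentile, with r = -0.254 (adjusted permutation p = 0.454, rho = -0.349) and r = -0.787 (adjusted permutation p = 0.0052), or -0.755 and -0.773. With lists of equal length r was -0.242 for the share and 0.0594 for the percentile. For the median percentile in the cluster r was -0.338 (adjusted permutation p = 0.346, rho = -0.316), with -0.439 (adjusted permutation p = 0.177) without the 100 ng library and -0.503 or -0.408 with either 8 µg library left out as well. The 500 ng pair, at 47.6 and 92.2, lay farther apart than any other pair.

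Individual regions were then matched between the lowest and the highest amount with 2 libraries, taking regions with exactly 1 peak in each of the 250 ng and 8 µg libraries. Of the 16 such regions in the cluster, 11 (68.8%) ranked higher in both 250 ng than in both 8 µg libraries, beside 18.3% over all 23223 matched regions, and 4 ranked lower, beside 48.1%. On the rest of the arm 130 of 695 (18.7%) ranked higher and 335 (48.2%) lower, close to the background. In width, 11 of the 16 cluster regions were wider at 250 ng (background 20%) and 3 narrower (49.9%), whereas outside 131 were wider and 368 narrower. At 20577164 to 20577710, for example, the percentile was 86.5 and 56.8 at 8 µg and 99.96 and 99.95 at 250 ng. Of the 7 matched cluster regions on less than 5 times the genome-wide background, 7 ranked higher at 250 ng, and of the 9 on more, 4 ranked higher and 4 lower. This count was added after the data were seen. The median local background of cluster peaks was higher at 250 ng than at 8 µg. At the 1 region given as an example, 20577164 to 20577710, the local background was 1.0 times the genome-wide level in the libraries of both amounts. The part of local background in the ranks was not tested.

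The third question was how the arm differs after salt. Outside the cluster the salt libraries held 1024 and 1130 peaks and the CK(salt) libraries 1540 and 1233, a difference of -0.36 in mean log2 number. The groups did not overlap (two-sided exact permutation p = 0.333, the smallest that 2 against 2 libraries allow). Peaks were also narrower, with medians of 352 and 315 bp against 427 and 407 bp (exact permutation p = 0.333). Both salt libraries lay below both CK(salt) libraries in 20 of the 25 windows, and the ratio of the means ran from 0.609 in the window from 24000001 to 24500000 to 0.910 in the one from 25500001 to 26000000. The genome without the arm was likewise poorer under salt, with 88.2 and 96.4 peaks per Mb against 139 and 109 in CK(salt). Windows off the arm were not counted, so the count of windows is not a trait of the arm. Depth differed as well, with a background coverage of 6.74 and 3.88 under salt and 8.60 and 4.30 in CK(salt), and with lists of equal length the difference in log2 number was 0.0556. Replicate 1 of salt and of CK(salt) fell in the same run of library codes, and replicate 2 of both in another. The share of the list on the arm outside the cluster was 3.12 and 3.15% under salt and 2.98 and 3.04% in CK(salt), and the median percentile was 52.7 and 52.3 against 52.0 and 50.3 (exact permutation p = 0.333 for each, with no overlap).

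The 4 salt and CK(salt) lists merged into 1746 regions on the arm outside the cluster and 39 in it. Regions with a peak in both salt lists and in no CK(salt) list, called gained, numbered 4 outside the cluster (0.229%, background 0.275%), and regions with the reverse, called lost, numbered 131 (7.50%, background 8.05%), so the arm was near the genome in both. In the cluster 0 regions were gained and 0 lost, and 35 of the 39 had a peak in all 4 lists. The counts are small and depend on each library. Without 1 of the 4 libraries the gained regions outside the cluster numbered 13 (without CK(salt) replicate 2), 38 (without CK(salt) replicate 1), 51 (without salt replicate 2) and 69 (without salt replicate 1), and the lost ones 387, 204, 284 and 237 in the same order, since fewer libraries then have to agree. In the cluster, 2 regions were gained and 2 lost without salt replicate 1 and 1 was gained without salt replicate 2. No share over the whole genome was computed with a library left out, so these counts cannot be set against the genome.

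Of the 4 gained regions, 21960260 to 21960510 had folds of 12.8 and 13.5 under salt, and 20461999 to 20462289 had 11.2 and 15.2. The latter lay 7.57 kb before the first RNaseH peak of the cluster. Both ranked at 99.3 or above in both salt lists and had a peak in 10 and 4 of the 13 input lists. The other gained regions were weak, 19104501 to 19105070 with folds of 3.10 and 4.38 and 17038036 to 17038264 with 2.97 and 3.90. The lost regions lay all along the arm, from 15118930 to 27487573, and 130 of 131 overlapped a peak of an input list. The strongest was 23974391 to 23974720, with folds of 7.71 and 6.61 in CK(salt), followed by 17179880 to 17180225 (8.23 and 6.42), 26783421 to 26783747 (5.98 and 5.95), 24328473 to 24329049 (6.14 and 7.36) and 18646923 to 18647304 (5.64 and 5.41). The third of these had a peak in all 13 input lists.

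Inside the cluster, ranks under salt lay higher than in CK(salt), by more than on the rest of the arm. The number of cluster peaks was 39 and 44 under salt and 40 and 41 in CK(salt), so the groups overlapped (exact permutation p = 1). The share of the list in the cluster was 0.119 and 0.123% against 0.0774 and 0.101%, without overlap. The median percentile of cluster peaks was 98.1 and 91.8 under salt against 67.9 and 82.6 in CK(salt), a difference of 19.7 points that also did not overlap (exact permutation p = 0.333 for share and percentile). Median widths were 767 and 459 bp against 497 and 417 bp, and these overlapped (exact permutation p = 0.667). The gap in percentile between the cluster and the rest of the arm was 45.4 and 39.5 points under salt and 15.9 and 32.3 in CK(salt), again without overlap (exact permutation p = 0.333).

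In regions with exactly 1 peak in each of the 4 lists the contrast was wide. Of 27 such cluster regions, 22 (81.5%) ranked higher in both salt than in both CK(salt) libraries, beside 4.62% over all 21021 matched regions, and 1 ranked lower, beside 34.3%. On the rest of the arm 37 of 645 (5.74%) ranked higher and 207 (32.1%) lower. In width, 11 of the 27 cluster regions were wider under salt (background 1%) and 0 narrower (background 60.7%), whereas outside 5 were wider and 376 (58.3%) narrower. At 20486747 to 20487098, a narrow region on a background at the genome-wide level, the percentile was 99.9 and 99.9 under salt and 56.3 and 83.2 in CK(salt). At 20516213 to 20517061, in the first raised block, it was 79.97 and 51.4 against 10.9 and 10.3. The 1 region ranked lower was 20517325 to 20518313, which stood above 99.9 in all 4 lists.

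**Figure D5:**
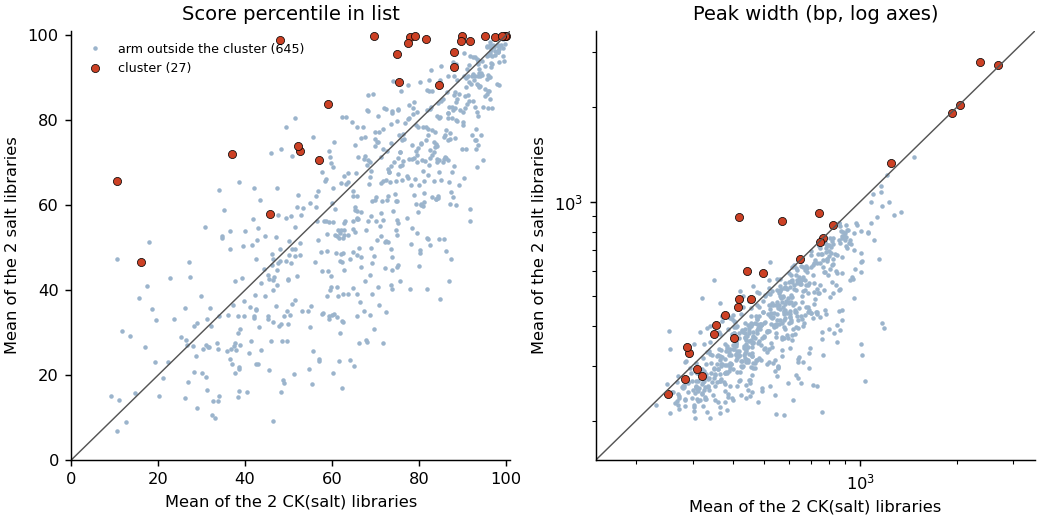
Mean of the 2 salt libraries against mean of the 2 CK(salt) libraries for score percentile (left) and peak width (right, log axes), for regions with exactly 1 peak in each of the 4 libraries. Large points are the 27 cluster regions, small points the 645 regions of the arm outside the cluster, and the line marks equal values. In the left panel most cluster regions lie above the line and most other regions below it.

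Local background in the cluster was higher under salt as well. Its median was 17.2 and 11.3 times the genome-wide level under salt and 6.86 and 8.65 times in CK(salt), without overlap (exact permutation p = 0.333), and the median summit pileup was 40.5 and 36.9 times against 20.1 and 29.8 times. The median fold of cluster peaks was lower under salt, 2.68 and 2.85 against 3.11 and 2.96. Off the arm, the highest local background under any peak was 23.7 and 19.7 times under salt and 10.1 and 14.5 times in CK(salt). The medians off the arm overlapped, with 1.32 and 1.31 against 1.28 and 1.31 times. On the rest of the arm the highest values were 2.39 and 2.84 against 2.96 and 2.97 times. Higher background under salt was thus not seen in the cluster alone. Of the 9 matched cluster regions on less than 5 times the genome-wide background, 9 ranked higher under salt, and of the 18 on more, 13 did, a count added after the data were seen. With the 4 lists cut to equal length 19 matched cluster regions ranked higher (90.5% of those matched, beside 14.6% over all), and without each library in turn 24 to 32 did. The part of local background and of depth in the ranks was not tested.

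The regions next to the limits show how sharp they are. Just inside 15 Mb lay 15001610 to 15001882 (5 libraries) and 15002701 to 15003211 (11 libraries), and just outside it 14977362 to 14977672 (2 libraries) and 14986898 to 14987521 (6 libraries). At the left limit of the cluster, 20469814 to 20470160 had a peak in 17 libraries and 20471824 to 20472084 in 3, whereas 20461991 to 20462312 and 20469026 to 20469293, just outside, had one in 6 and 3. At the right limit, 20657108 to 20660881 and 20665708 to 20667847 had a peak in 17 libraries each, and beyond them 20728674 to 20729665 had one in 17 and 20733268 to 20733656 in 10.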

How the data were processed

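The authors deposited 1 peak list per library for the 18 libraries, in the narrowPeak layout and without headers. The submitters' processing notes name Bowtie2 and MACS2 2.1.4. The genome build, any control library and the handling of duplicates are not given in the sources used here. In the deposited lists, a peak's score is its q-value as −log10, multiplied by 10 with the decimals dropped. The fold is the authors' ratio of pileup to local background at the summit, and p-values and q-values were deposited as −log10. Folds and scores served to describe or order the peaks of 1 list.

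Summit pileup and local background were solved from the deposited fold and p-value with a tolerance of 0.0002, for at least 99.997% of the summits of each list. No depth or interval can be had from read counts. Peaks were merged with an overlap of 1 bp, the strongest peak of a library stood for it in a merged region, and RNaseH peaks were linked into clusters within 100 kb. Across the 13 input libraries, 8 relations to log2 input were tested by permutation (100000 resamples), and 6 differences between parts of the genome by exact sign-flip permutation, each set adjusted after Benjamini and Hochberg at 0.05. Salt and CK(salt) were compared by exact permutation. Scripts used Python 3.11.15, numpy 2.4.6, pandas 2.3.3, scipy 1.17.1 and matplotlib 3.10.9, and were tested on simulated data.

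The members, the lists and the rules were chosen with earlier results of these data known. The rule for named regions takes the 6 cluster regions and the 4 others with an RNaseH peak that rank highest, the 6 highest-ranked regions outside the cluster, the 4 widest, up to 5 gained and 5 lost, those beside each limit, and the densest and emptiest windows. The only gene table used for comparison, of ASM3414082v1, has genes up to 28.2 Mb on chromosome 12 and 27.5 Mb on chromosome 9, against last peaks at 27.5 and 22.9 Mb. The builds appear to differ, so no gene or sequence is reported. Replicate numbers were checked for pairing over the 25 windows. Same-numbered libraries of 28 pairs of groups gave correlations of -0.381 to 0.409, with 5 above 0.1, so no general pairing by number was seen. For salt and CK(salt) the correlation was -0.0486. Their same-numbered libraries shared a run of library codes, however, and this check cannot exclude that they are paired. Alternatives were equally long lists, a stricter q-value, 50% reciprocal overlap, other limits, blocks by replicate number and by library code, constant background coverage and leaving out libraries.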

Additional observations from a re-analysis of the deposited data

How the results depend on the processing

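Of 196 recomputed values, 137 kept their direction and their side of the threshold or stayed close in size, 17 lost a call, 9 gained one, 15 changed sign and 18 counts moved by more than 1.5 times. The salt differences among them could only stay or change sign, because so few libraries allow no p under the threshold. The causes of the changes were not tested. Cutting lists to the length of the shortest, 14845 peaks among the input libraries and 32861 among the salt and CK(salt) libraries, does however remove differences in list length by construction. With such lists, the relations to input on the arm outside the cluster were -0.242 for log2 peak number, -0.242 for share, 0.326 for median width and 0.0594 for median percentile. In the cluster they were -0.511 for log2 number, -0.558 for share and 0.0854 for width. The difference of the arm outside the cluster from the rest of the genome was 0.231 bp in width and 0.0724 points in percentile. The salt difference in log2 number outside the cluster was 0.0556, with 32 gained and 52 lost regions there and 2 gained in the cluster. At a −log10 q of at least 5, the relation of median percentile outside the cluster to input was -0.822, and 2 regions were gained. With 50% reciprocal overlap, single peaks of replicate 1 were counted in place of merged regions, and a smaller overlap counted as none. By this rule 66 peaks of salt replicate 1 were gained outside the cluster and 1 in it. In the cluster 1 peak of CK(salt) replicate 1 was lost. With the arm taken from 16 Mb the width difference from the rest of the genome was 0.423 bp.

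With a block for replicate number the relation of the cluster's share to input was -0.556 (adjusted permutation p = 0.0766), and it changed no other call. For the salt differences the block leaves the values as they are, and the smallest p that 2 pairs allow is 0.5. Within runs of library codes r was 0.891 for log2 number outside the cluster and, in the cluster, 0.870 for log2 number, 0.691 for share and 0.443 for percentile. At constant background coverage r was 0.552 for log2 number, 0.702 for share, -0.790 for width and -0.660 for percentile outside the cluster, and 0.526 for share and -0.829 for width in it. Without the 100 ng library r was 0.863 for share, -0.832 for width and -0.787 for percentile outside, and -0.299 for share and -0.872 for width in the cluster.

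Leaving out the libraries of 1 replicate number, or 1 salt or CK(salt) library, in turn gave these ranges. Relations to input ran from 0.803 to 0.973 for log2 number and from -0.889 to 0.174 for width outside the cluster, and from 0.731 to 0.959 for log2 number and -0.634 to -0.623 for share in it. The cluster exceeded the rest of the arm by 78.4 to 90.2 peaks per Mb, 95.3 to 109.5 bp and 21.3 to 28.5 points, and the rest of the arm differed from the genome by -17.7 to -13.8 peaks per Mb, -3.5 to 1.92 bp and 0.805 to 1.66 points. The salt difference in log2 number in the cluster ran from -0.0543 (without salt replicate 2) to 0.120. Gained regions ran from 13 to 69 and lost ones from 204 to 387 outside the cluster, and both from 0 to 2 in it. For gained and lost counts, no share over the whole genome was computed under any of the alternatives.

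Depth limits what the lists can show. A place without a peak may carry R-loops below the caller's threshold, and the 100 ng library, with a background coverage of 0.88, holds the fewest peaks. Pairs of libraries cannot reach a p-value under 0.333 in a comparison of 2 against 2.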
